A study of Mus musculus with 66 samples.

Results

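The DNAJ genes encode the J proteins, the co-chaperones that work with the HSP70 chaperones. The family was taken here as every entry of the expression table whose symbol starts with Dnaja, Dnajb or Dnajc followed by a number, which gave 45 of 24138 genes: 4 of the Dnaja, 13 of the Dnajb and 28 of the Dnajc group. RNA-seq was done on punches of the ventral striatum containing the nucleus accumbens (NAcc), from WT and iMSN-D2RKO mice of strain C57BL/6, given as C57BL/6J in the methods. In iMSN-D2RKO mice the dopamine D2 receptor (D2R) gene is floxed on both alleles, and Cre is driven by the D1R promoter, which is active in embryonic precursors of medium spiny neurons (MSNs), so that D2R is lost from the indirect-pathway MSNs (iMSNs) and other cells of the punch keep it. Mice of both genotypes lived in a 12 h light and 12 h dark cycle and were injected i.p. with saline or with 20 mg/kg cocaine at zeitgeber time (ZT) 3, that is 3 h after lights on. Brains were harvested every 4 h from ZT3 to ZT23. The 22 groups of 3 libraries each are the 2 genotypes at ZT3, which stand at the start of both the saline and the cocaine series, and the 4 combinations of genotype and treatment at each of the 5 later time points.

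An HSP70 protein binds and releases unfolded stretches of other proteins in a cycle driven by ATP. A J protein brings a client to HSP70 and, through the J domain that gives the family its name, triggers the hydrolysis of ATP that closes HSP70 on the client. Dnaja proteins carry a zinc-binding region beside the J domain, Dnajb proteins a glycine- and phenylalanine-rich stretch, and Dnajc proteins share little beyond the J domain, which places them at ribosomes, spliceosomes, mitochondria, the endoplasmic reticulum (ER) or synaptic vesicles. Neurons depend on several of them, among them Dnajc5 (cysteine string protein) on synaptic vesicles and Dnajc6 (auxilin), which takes the clathrin coat off endocytosed vesicles.

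Values are FPKM, read counts scaled to transcript length and to library depth, so levels of different genes can be set side by side. Total FPKM of the 66 libraries ran from 364078 to 690048 with a median of 396432, and 12496 to 13028 genes reached 1 FPKM. The depth in reads is unknown. Drd2, the targeted gene, had 99.1 to 304 FPKM in WT (median 129, n = 33) and 78.0 to 375 FPKM in iMSN-D2RKO (median 112, n = 33), so the genotypes overlapped. The gene-level value also covers exons outside the floxed part and cells that keep the receptor, and it does not check the genotype labels. The 7 spiny neuron markers were above 1 FPKM in every library. Their summed FPKM ran from 2332 to 15192, with a median of 3395 in WT and 4608 in iMSN-D2RKO. That of 4 cortical excitatory neuron markers ran from 3.40 to 279, with a median of 183 at ZT11, 67.0 at ZT15 and 138 at ZT19. The part of cortical tissue in the results was not tested. Within groups, 43.5% of the variance lay on a single principal component. On it 13 libraries, called set-apart here, scored 44.2 to 56.0, whereas the other 53 scored -35.9 to 15. None of the 13 was harvested at ZT3 or ZT11, 1 at ZT7, 2 at ZT15, 6 at ZT19 and 4 at ZT23. A rough relative depth, estimated from genes detected in few libraries, was 0.655 to 0.752 in the 13 (median 0.693). In the other 53 it was 0.553 to 1.70 (median 1.02). Replicate 3 of WT cocaine at ZT15 had 0.553 and replicate 1 of iMSN-D2RKO saline at ZT7 had 0.589. The part of depth in the results was not tested. In addition, replicate 1 of iMSN-D2RKO saline at ZT7 had the largest total FPKM and held the highest value of 11 and the lowest value of 9 of the 40 DNAJ genes tested, and replicate 3 of WT cocaine at ZT15, with the smallest total FPKM, held the lowest value of 13 of them. Results that rest on such libraries are therefore given with and without most of them. The fullest such setting leaves out 15 libraries, namely the 13, replicate 1 of iMSN-D2RKO saline at ZT7 and replicate 2 of WT cocaine at ZT19, with the highest score of the remaining 53. Replicate 3 of WT cocaine at ZT15 stays in this setting, and settings without it are given as counts of calls only.

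Of the 45 DNAJ genes, 40 reached 1 FPKM in at least 1 library, and 37 did so in all 66. The most abundant was Dnajc7, a co-chaperone that passes clients between HSP70 and HSP90, at a mean of 96.9 FPKM (67.4 to 318 over 66 libraries, median 95.3). Dnajc5 followed at 82.6 FPKM (39.7 to 95.1) and Dnaja2, a cytosolic partner of HSP70 in refolding, at 82.1 FPKM (39.1 to 175). Their ranges overlapped, and the median of Dnaja2, 66.6 FPKM, was below that of Dnajc5, 84.0 FPKM. The spliceosome-associated Dnajc8 averaged 55.8 FPKM (22.4 to 208) and the uncoating factor Dnajc6 51 FPKM (13.4 to 65.3). The extreme values of 318 and 208 FPKM and the minima of 39.7 and 13.4 FPKM all came from replicate 1 of iMSN-D2RKO saline at ZT7. At the other end, Dnajc5b, a paralogue of Dnajc5, and the testis gene Dnajb8 never exceeded 0.360 and 0.154 FPKM. Dnajc22 and Dnajb7 stayed at or below 0.210 and 0.326 FPKM, and Dnajc5g was listed at 0 in all 66 libraries. Dnajb13, a gene of motile cilia, reached 1 FPKM in 1 library only (1.45 FPKM), and Dnajb3 and Dnajc25 in 63 and 62 libraries.

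**Figure D1:**
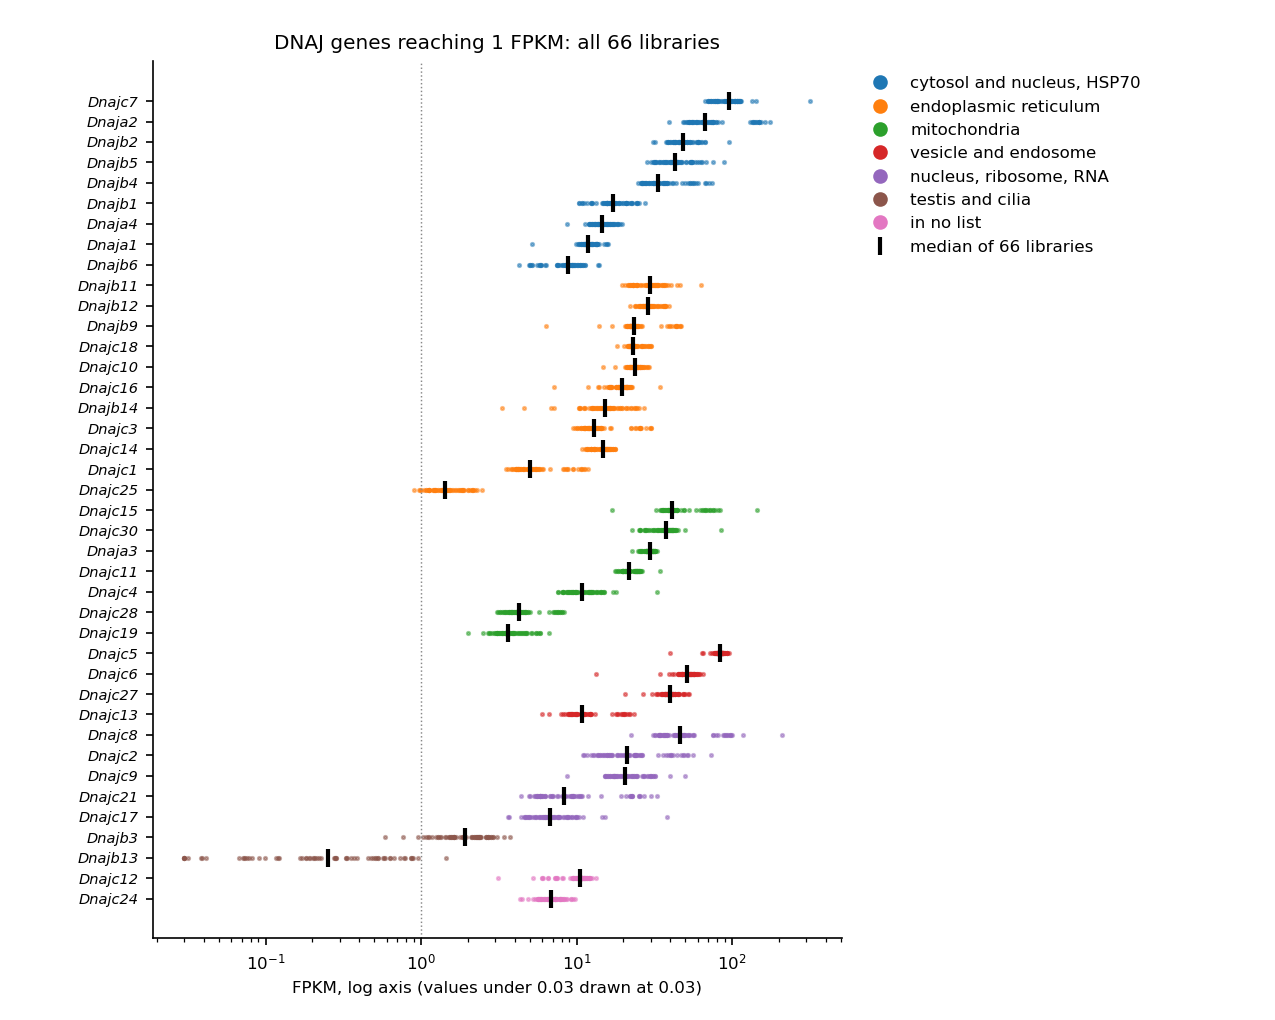
FPKM of the 40 DNAJ genes that reached 1 FPKM, on a log axis, with 1 point per library (n = 66), a bar at the median and colours for the compartment in which the protein works. Medians ran from 0.252 FPKM for Dnajb13 to 95.3 FPKM for Dnajc7, and for Dnaja2, Dnajc3, Dnajc21 and Dnajc28 a second cloud of points lies to the right of the main one.

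Time of harvest was tested first, with one limma F test over all 66 libraries that allowed for genotype and treatment. Every injection was given at ZT3, so harvest time cannot be told apart from time since injection, here or in the rhythm tests below. Of the 40 DNAJ genes tested, 22 differed between harvest times at an adjusted p-value under 0.05, beside 49.9% of all 14643 genes tested. The family was thus called at about the rate of all genes. Among the 22, the fitted mean was highest at ZT19 for 15 genes and lowest at ZT3 for 9 and at ZT11 for 9 others. Without the 15 libraries, which leaves 5 libraries at ZT19 and 8 at ZT23, 23 of 40 DNAJ genes were called, beside 30.5% of 14296 genes, and the maximum lay at ZT23 for 9 and at ZT19 for 7 of them. The lowest fitted mean was again at ZT3 for 9 and at ZT11 for 10 of these 23. The 5 libraries left at ZT19 are replicate 3 of WT saline, replicate 2 of iMSN-D2RKO saline and all replicates of iMSN-D2RKO cocaine. Means at ZT19 without the 15 libraries therefore rest mostly on iMSN-D2RKO mice, unlike those at ZT11. Libraries are from bulk tissue, so fewer cells of a type and less RNA per cell cannot be told apart. At ZT3 the summed FPKM of 4 choroid plexus markers was 57.9 to 170 in the 6 libraries, against 0.760 to 1130 with a median of 2.06 in the other 60. Nearly all of the sum at ZT3 was Ttr, at 56.1 to 166 FPKM, and 2 of the 4 markers reached 1 FPKM in all 6 libraries. The part of choroid plexus tissue in the values at ZT3 was not tested.

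The 5 J proteins of the nucleus, of ribosomes and of RNA processing were all called by harvest time, with and without the 15 libraries. Of all genes tested, 49.9% and 30.5% were called in these settings. Dnajc21 (chromosome 15, 10446756 to 10470516, minus strand, mm10), which helps to mature the large ribosomal subunit in the cytosol, had the smallest adjusted p of the family, 1.26e-05 by limma. In WT it measured 5.86, 5.79 and 5.32 FPKM at ZT3, 5.78, 4.42 and 5.58 FPKM at ZT11 after saline, and 22, 22.8 and 9.16 FPKM at ZT19 after saline. All 3 libraries at ZT19 were above all of those at ZT3 and ZT11, but the pair of 22 and 22.8 FPKM are set-apart libraries. At ZT19 after cocaine the WT libraries measured 25.2, 32.7 and 22.8 FPKM, of which replicates 1 and 3 are set apart. The iMSN-D2RKO libraries at ZT19 measured 22.2, 11.9 and 22.8 FPKM after saline, replicates 1 and 3 again set apart, and 8.52, 10.2 and 10.7 FPKM after cocaine. Over all groups Dnajc21 rose from 5.85 ± 0.834 FPKM at ZT11 to 18.4 ± 7.93 FPKM at ZT19 (mean ± SD, n = 12 each). Without the 15 libraries the mean at ZT19 was 10.1 ± 1.32 FPKM (n = 5), the range of 8.52 to 11.9 FPKM still lay above the 4.42 to 7.54 FPKM at ZT11, and the adjusted p was 1.18e-06 by limma. The size of the difference between ZT11 and ZT19 therefore depended on these libraries and its direction did not. In WT that direction then rests on 1 library at ZT19, of 9.16 FPKM.

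Dnajc2 (zuotin), which acts at the ribosomal exit tunnel, was also higher at ZT19 than at ZT3 and ZT11. It averaged 13.6 ± 2.01 FPKM at ZT3 (n = 6), 16 ± 2.07 FPKM at ZT11 and 35.5 ± 12.2 FPKM at ZT19 (n = 12 each), and 22.8 ± 1.59 FPKM at ZT19 without the 15 libraries (n = 5). The 5 remaining libraries of ZT19, at 20.7 to 24.1 FPKM, did not overlap the 12.4 to 20.1 FPKM of ZT11. Its adjusted p was 6.44e-05 by limma with all libraries. The histone chaperone Dnajc9 and the splicing-related Dnajc8 and Dnajc17 had adjusted p-values of 2.05e-04, 5.82e-04 and 0.00178 by limma. All 3 were lowest at ZT3 with and without the 15 libraries.

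**Figure D2:**
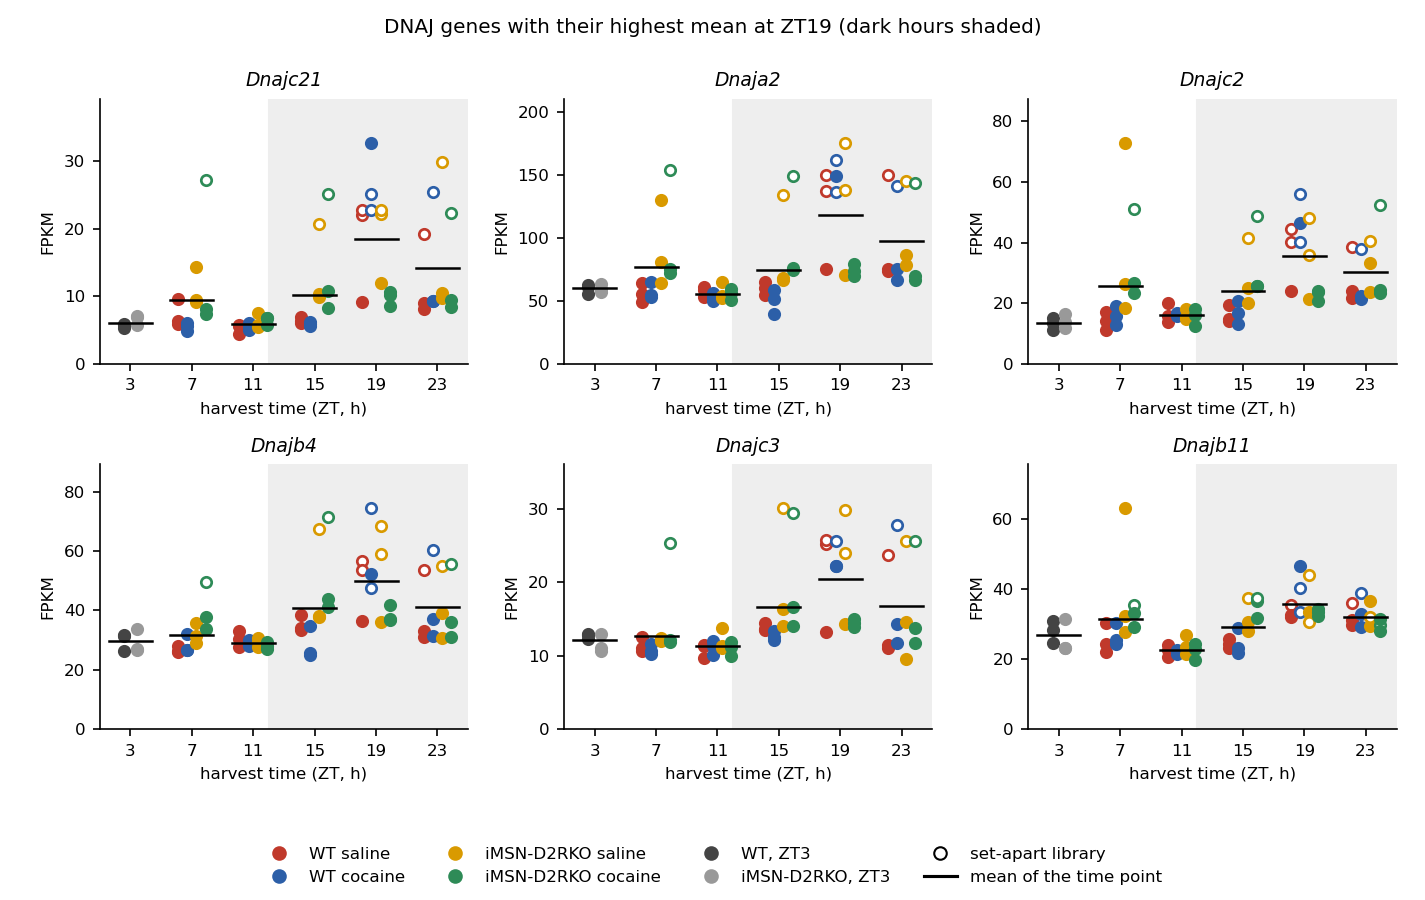
FPKM by harvest time (ZT, h) for 6 DNAJ genes with their highest fitted mean at ZT19, with 1 point per library, colours for genotype and treatment, open points for set-apart libraries and a bar at the mean of each time point. For Dnajc21, Dnaja2, Dnajc2 and Dnajc3 the open points form an upper cloud at ZT7 to ZT23, whereas those of Dnajb11 lie among the filled points.

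Of the 9 cytosolic and nuclear J proteins that serve HSP70, 6 were called by harvest time with all libraries and 8 without the 15. The shares among all genes were 49.9% and 30.5%. Dnaja2 (chromosome 8, 85537633 to 85555344, minus strand, mm10) averaged 55.6 ± 4.60 FPKM at ZT11 and 118 ± 40.6 FPKM at ZT19 (n = 12 each; adjusted p = 1.10e-04 by limma). Without the 15 libraries the mean at ZT19 was 73.7 ± 3.73 FPKM (n = 5), and these 5 libraries, at 69.8 to 79.1 FPKM, were all above the 49.4 to 65.2 FPKM of ZT11. Dnajb4 averaged 29.1 ± 1.74 FPKM at ZT11 and 50 ± 13 FPKM at ZT19 (adjusted p = 6.88e-05 by limma), and 37.6 ± 2.35 FPKM at ZT19 without the 15 libraries. Dnajb4 is a close homologue of the heat-inducible Dnajb1. Dnaja1, the farnesylated partner of HSP70, which shares its entry with Mir207, varied little. It ranged from 9.97 to 15.9 FPKM in 65 libraries and was at 5.20 FPKM in replicate 3 of WT cocaine at ZT15. Its call (adjusted p = 0.0286 by limma) was lost without the 15 libraries.

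Dnajb1 (HSP40; chromosome 8, 83608193 to 83612653, plus strand, mm10), the classic heat shock-inducible J protein, followed another course. In WT it measured 24.2, 24.6 and 27.7 FPKM at ZT3 and, after saline, 15.7, 17.2 and 15.6 FPKM at ZT7, 14.6, 17.7 and 15.8 FPKM at ZT11 and 20.7, 20.9 and 20.9 FPKM at ZT15. The libraries at ZT3 and ZT15 were all above those at ZT7 and ZT11. In iMSN-D2RKO mice it measured 15.7, 17.9 and 20.7 FPKM at ZT3, all below the 3 WT libraries of that time point. It measured 24.4, 22.5 and 22.7 FPKM at ZT19 after cocaine, and 12.5, 22.5 and 12.4 FPKM at ZT19 after saline, where the lower pair are set-apart libraries. With all libraries Dnajb1 missed the threshold (adjusted p = 0.0528 by limma), and without the 15 it was among the clearest members of the family (adjusted p = 8.33e-06, in a range of 4.62e-06 to 0.308 over all alternatives). In that setting it averaged 16.1 ± 0.897 FPKM at ZT7, 16.1 ± 1.04 FPKM at ZT11 and 22.1 ± 2.1 FPKM at ZT19 (n = 10, 12 and 5), and 21.8 ± 4.52 FPKM at ZT3 (n = 6). The only WT library among the 5 at ZT19 had 18.7 FPKM.

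Dnajb5, a brain- and heart-expressed relative of Dnajb1 (chromosome 4, 42949814 to 42959425, plus strand, mm10), was called in the F test (adjusted p = 0.00137 by limma; 0.0686 without replicate 3 of every group). In WT it measured 88.8, 54.2 and 55.3 FPKM at ZT3, 32.2, 31.7 and 36.9 FPKM at ZT7 after saline, and 38.5, 43.7 and 28.4 FPKM at ZT7 after cocaine. All WT libraries at ZT7 were below all of those at ZT3. The iMSN-D2RKO libraries measured 42.3, 45.8 and 53.8 FPKM at ZT3, 61.0, 41.1 and 53.8 FPKM at ZT7 after saline, and 40.7, 30.9 and 39.8 FPKM at ZT7 after cocaine. The saline libraries overlapped those at ZT3 and the cocaine libraries were all below them. The 61.0 FPKM came from the library of the largest total FPKM and the 30.9 FPKM from a set-apart library. Dnaja4, a sterol-responsive J protein, was lowest at ZT7 and ZT11, with means of 12.9 ± 1.67 and 13.2 ± 1.15 FPKM, and highest at ZT15 with 16.1 ± 1.43 FPKM (n = 12 each; adjusted p = 2.44e-04 by limma). Without the 15 libraries its highest mean was at ZT19, 17.6 ± 1.05 FPKM (n = 5).

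**Figure D3:**
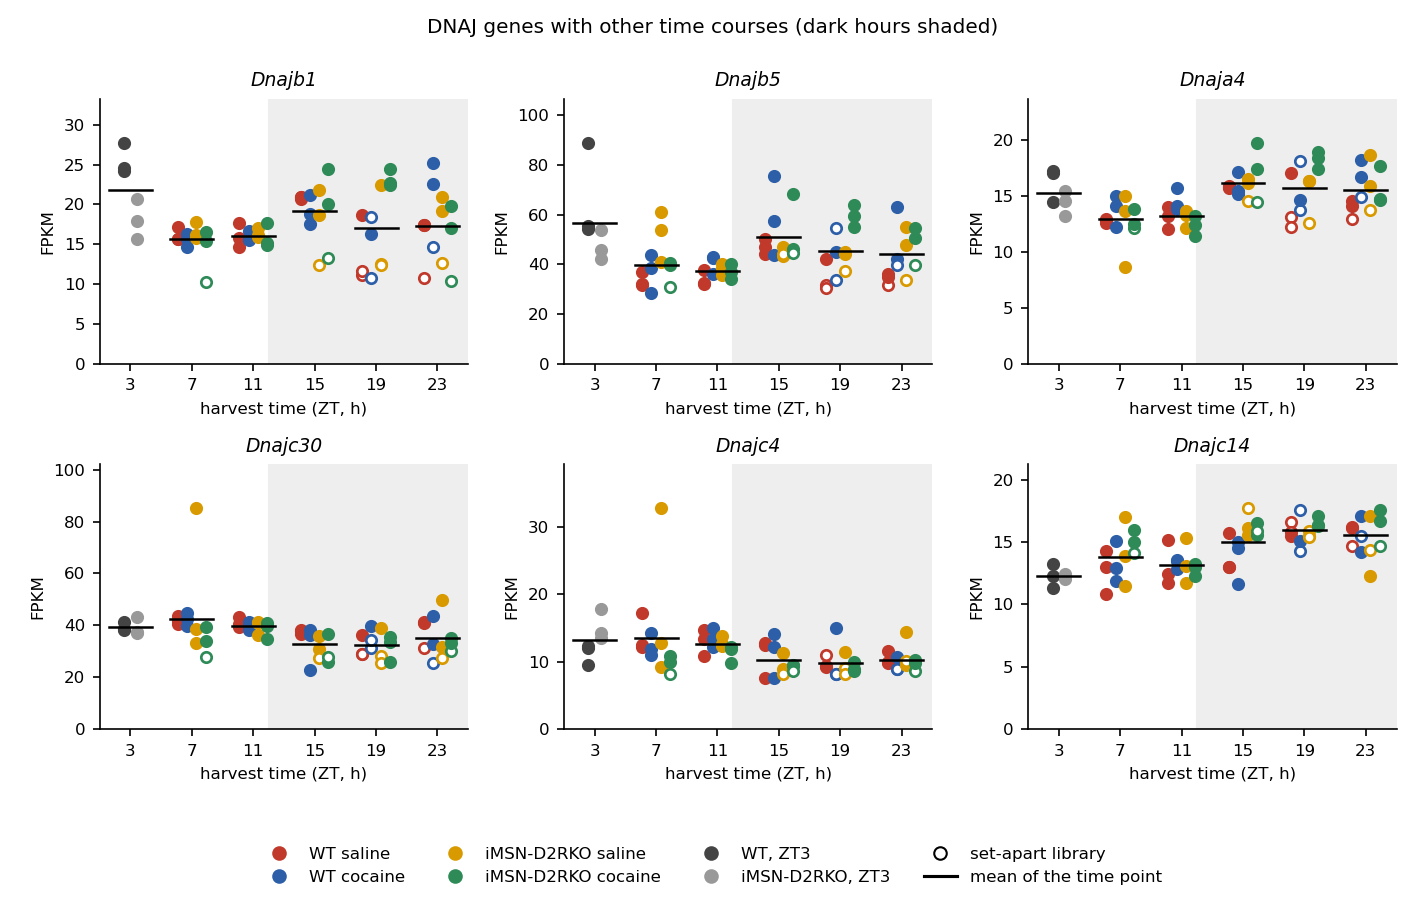
FPKM by harvest time (ZT, h) for 6 DNAJ genes with other courses, with 1 point per library, colours for genotype and treatment, open points for set-apart libraries and a bar at the mean of each time point. The open points of Dnajb1 lie mostly below the filled ones from ZT7 to ZT23, and the lone points at 85.1 FPKM for Dnajc30 and 32.7 FPKM for Dnajc4 are replicate 1 of iMSN-D2RKO saline at ZT7.

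Of the 11 ER J proteins, 6 were called by harvest time with all libraries and 5 without the 15, beside 49.9% and 30.5% of all genes. The J proteins inside the ER lumen work with BiP (Hspa5), the HSP70 of that compartment, and are known targets of the unfolded protein response through ER stress elements in their promoters. The RefSeq promoter windows, 250 bases before to 50 bases after the annotated start on GRCm38.p6, were searched on both strands for such elements, and 37 of the 45 DNAJ genes had a window. The ER stress element (CCAAT and CCACG with 9 bases between them) was in 0.119% of 32851 windows, and Dnajc3 was the only DNAJ gene with it. Hspa5 had it too. The second ER stress element (ATTGG and CCACG with 1 base between them) was in 0.0365% of windows and, within the family, in that of Dnajb11 alone. The sequences are shown because these are the DNAJ promoters with such a match, beside Hspa5. They are written on the plus strand, which is the sense strand of all 3 genes, with the match in capitals. Those of Dnajc3 (chr14:118937802-118937931) and Hspa5 (chr2:34771960-34772089) are the 130 bases before the start, with the match 105 to 87 and 65 to 47 bases before it. That of Dnajb11 (chr16:22857844-22857870) has its match 7 to 17 bases after the start.
Dnajc3: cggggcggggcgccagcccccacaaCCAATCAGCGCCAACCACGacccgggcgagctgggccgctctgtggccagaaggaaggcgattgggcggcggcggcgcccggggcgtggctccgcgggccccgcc
Hspa5: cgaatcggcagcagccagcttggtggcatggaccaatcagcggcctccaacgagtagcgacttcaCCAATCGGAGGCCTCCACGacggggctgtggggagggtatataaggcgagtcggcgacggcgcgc
Dnajb11: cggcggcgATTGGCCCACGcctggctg

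Dnajb11 (ERdj3; chromosome 16, 22857845 to 22879634, plus strand, mm10), a soluble BiP partner of the ER lumen, had an adjusted p of 2.43e-05 by limma. In WT after saline it measured 24, 20.5 and 22.6 FPKM at ZT11, 35.4, 32.7 and 32.0 FPKM at ZT19 and 36.1, 29.7 and 31.0 FPKM at ZT23, after 28.4, 24.6 and 30.9 FPKM at ZT3. The libraries of ZT19 and ZT23 did not overlap those of ZT11. Over all groups the means were 22.6 ± 1.88 FPKM at ZT11 and 35.7 ± 5.07 FPKM at ZT19 (n = 12 each), and 33 ± 0.932 FPKM at ZT19 without the 15 libraries (n = 5). Hspa5 averaged 84.7 ± 9.18 FPKM at ZT11 and 159 ± 36.4 FPKM at ZT19 (adjusted p = 8.08e-07 by limma). In the means over all groups both were thus lowest at ZT11 and highest at ZT19. By series, Dnajb11 was highest at ZT19 in both WT series and at ZT15 in iMSN-D2RKO mice after cocaine. After saline its maximum in iMSN-D2RKO mice was at ZT7, where the library of the largest total FPKM had 63.0 FPKM. Hspa5 was highest at ZT3 in WT after saline, at ZT19 in WT after cocaine and at ZT15 in both iMSN-D2RKO series.

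Dnajc3 (P58IPK; chromosome 14, 118937976 to 118981697, plus strand, mm10), a BiP co-chaperone also known as an inhibitor of the kinase PERK, measured 11.4, 9.75 and 11.3 FPKM at ZT11 in WT after saline and 25.3, 25.8 and 13.3 FPKM at ZT19. The pair of 25.3 and 25.8 FPKM are set-apart libraries. Its mean over all groups rose from 11.3 ± 1.07 FPKM at ZT11 to 20.5 ± 5.93 FPKM at ZT19 (adjusted p = 4.73e-04 by limma), and the mean at ZT19 was 14.2 ± 0.630 FPKM without the 15 libraries. Among the ER members that face the cytosol, Dnajc14, which is known to bind dopamine D1 receptors and hold them in the ER, was lowest at ZT3 at 12.3 ± 0.626 FPKM (n = 6) and reached 16 ± 0.897 FPKM at ZT19 (adjusted p = 1.05e-04 by limma). Its mean at ZT19 without the 15 libraries was 16.1 ± 0.669 FPKM. The ribosome-associated ER protein Dnajc1 was called with and without the 15 libraries (adjusted p = 0.00214 by limma with all), whereas Dnajb12 (0.0368) and Dnajc16 (0.0214) were called with all libraries only. The disulfide reductase Dnajc10 (ERdj5) was not called with all libraries (adjusted p = 0.437 by limma) and was called without the 15 (adjusted p = 0.0224).

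Of the 7 mitochondrial J proteins, 4 were called with all libraries and 4 without the 15, beside 49.9% and 30.5% of all genes. Dnajc30, a factor of the respiratory chain, was higher in the light phase with all libraries (adjusted p = 0.00767 by limma). Its means were 39.3 ± 2.38, 42.6 ± 14.2 and 39.8 ± 2.31 FPKM at ZT3, ZT7 and ZT11. They were 32.8 ± 5.56, 32.3 ± 4.94 and 35.2 ± 7.2 FPKM at ZT15, ZT19 and ZT23. Without the 15 libraries they were 33.9 ± 5.52, 34.1 ± 5.04 and 38.5 ± 6.35 FPKM there, so ZT23 came close to the 39.8 ± 3.72 FPKM of ZT7. Dnajc4 had a like course, from 13.5 ± 6.49 FPKM at ZT7 down to 9.74 ± 1.97 FPKM at ZT19 (adjusted p = 0.00885 by limma). Without the 15 libraries Dnajc4 was highest at ZT3, at 13.2 ± 2.76 FPKM, with 12.1 ± 2.31 FPKM at ZT7 and 9.61 ± 1.11 FPKM at ZT19. Each lost the call without the 13 set-apart libraries and kept it without the 15. Dnajc28 (adjusted p = 1.23e-04 by limma) was highest at ZT19, and the subunit of the import motor Dnajc15 (0.0135) was called with all libraries only. Dnaja3 (Tid1), the main J protein of the mitochondrial matrix, ranged from 22.7 to 33 FPKM over 66 libraries and was not called (adjusted p = 0.735 by limma). Of the 4 vesicle and endosome members tested, the endosomal Dnajc13 was called with all libraries (adjusted p = 0.0102 by limma) and not without the 15. Dnajc5, Dnajc6 and the Rab-like Dnajc27 were called in neither setting.

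Rhythms were then tested in each 24 h series of 18 libraries with the JTK_CYCLE exact test, which compares the order of the values over time with cosine curves. The threshold was a p-value of 0.01 after correction for the curves tried. In WT after saline, 9 of 39 DNAJ genes were called, beside 9.81% of all 13940 genes tested. The smallest exact JTK_CYCLE p-values were 1.90e-04 for Dnajb4, 4.86e-04 for Dnajb11, 7.55e-04 for Dnajc28 and 9.05e-04 for Dnaja1, and these 4 also passed an adjusted p under 0.05 over all genes (0.0207 for Dnajb4). Dnajc3, Dnajc30, Dnajc13, Dnajc1 and Dnaja2 followed. In WT after cocaine, 6 of 40 were called, beside 7.61% of 14268 genes, namely Dnaja1, Dnajc3, Dnajc21, Dnajc28, Dnajb11 and Dnajc24, and none passed after adjustment over all genes. The 2 WT series share their ZT3 libraries. In iMSN-D2RKO mice none of 39 was called after saline, beside 2.58% of 14135 genes, and 3 had an exact JTK_CYCLE p under 0.05 (Dnajc15 0.0108, Dnajc4 0.0269 and Dnaja4 0.03). After cocaine 2 of 39 were called, beside 1.10% of 13944 genes, namely Dnaja4 (exact JTK_CYCLE p = 0.00173) and Dnajb5 (0.00255).

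Without the 15 libraries, the JTK_CYCLE calls in WT after saline were Dnajb4, Dnajb11, Dnaja1, Dnajc3, Dnajc30, Dnaja4 and Dnajc27, beside 888 of 13940 genes against 1367 with all libraries. Those in WT after cocaine were Dnajb1 and Dnajc24, beside 340 of 14268 genes against 1086. Those in iMSN-D2RKO mice after cocaine were Dnajb5 and Dnajb1, beside 267 of 13944 genes against 153. In iMSN-D2RKO mice after saline, 4 members (Dnajc9, Dnajc21, Dnajc28 and Dnaja2) were called without ZT7, against 0 with it, while the calls among all 14135 genes went from 365 to 642. ZT7 holds the library of the largest total FPKM, and leaving out that library alone gave 0 members and 334 genes. A call in one series and not in another is no test of a difference. The difference in rhythm was tested directly, with limma on sine and cosine terms of a period of 24 h. No DNAJ gene was called between cocaine and saline in WT (0% of 14392 genes called), between cocaine and saline in iMSN-D2RKO mice (0% of 14238), between genotypes after saline (0% of 14287) or between genotypes after cocaine (0% of 14382). At an unadjusted p under 0.05 there were 1, 2, 0 and 1 DNAJ genes, and 198, 789, 355 and 695 genes in all. The smallest p of a member was 0.00434, for Dnajb5 between cocaine and saline in iMSN-D2RKO mice (adjusted p = 0.594 by limma).

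The level from ZT7 to ZT23 was compared between cocaine and saline with time point as a factor. In WT no DNAJ gene was called, as for all genes (0% of 14392, with 365 at an unadjusted p under 0.05). The smallest p was that of Dnajb5. After saline its libraries measured 32.2, 31.7 and 36.9 FPKM at ZT7, 37.8, 32.6 and 32.0 FPKM at ZT11, 50.4, 47.0 and 44.2 FPKM at ZT15, 31.8, 30.3 and 42.0 FPKM at ZT19 and 31.6, 34.9 and 36.3 FPKM at ZT23. After cocaine they measured 38.5, 43.7 and 28.4 FPKM, 42.6, 36.1 and 42.9 FPKM, 57.4, 43.6 and 75.5 FPKM, 33.8, 44.8 and 54.8 FPKM, and 42.0, 63.2 and 39.7 FPKM at the same time points. The 75.5 FPKM came from the library of the smallest total FPKM. At ZT19 replicates 1 and 2 of saline and 1 and 3 of cocaine are set apart. At ZT23 replicate 1 of saline and replicate 3 of cocaine are. Such libraries were below the others for Dnajb5 in 8 of 10 groups. The 3 cocaine libraries were all above the 3 saline libraries at ZT23 only, and the groups overlapped at the other 4 time points. The difference was 0.284 ± 0.0854 on the log2(FPKM + 1) scale (SE; 95% interval 0.109 to 0.459, unadjusted p = 0.00249, adjusted p = 1.0 by limma). Dnaja4 differed by 0.122 ± 0.0512 (adjusted p = 1.0 by limma). All 40 intervals lay within a 1.5-fold change in either direction, and the median difference was -0.0324 over the DNAJ genes against 1.63e-05 over all genes. Without replicate 3 of WT cocaine at ZT15 again no member was called, beside 0 of 14198 genes.

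**Figure D4:**
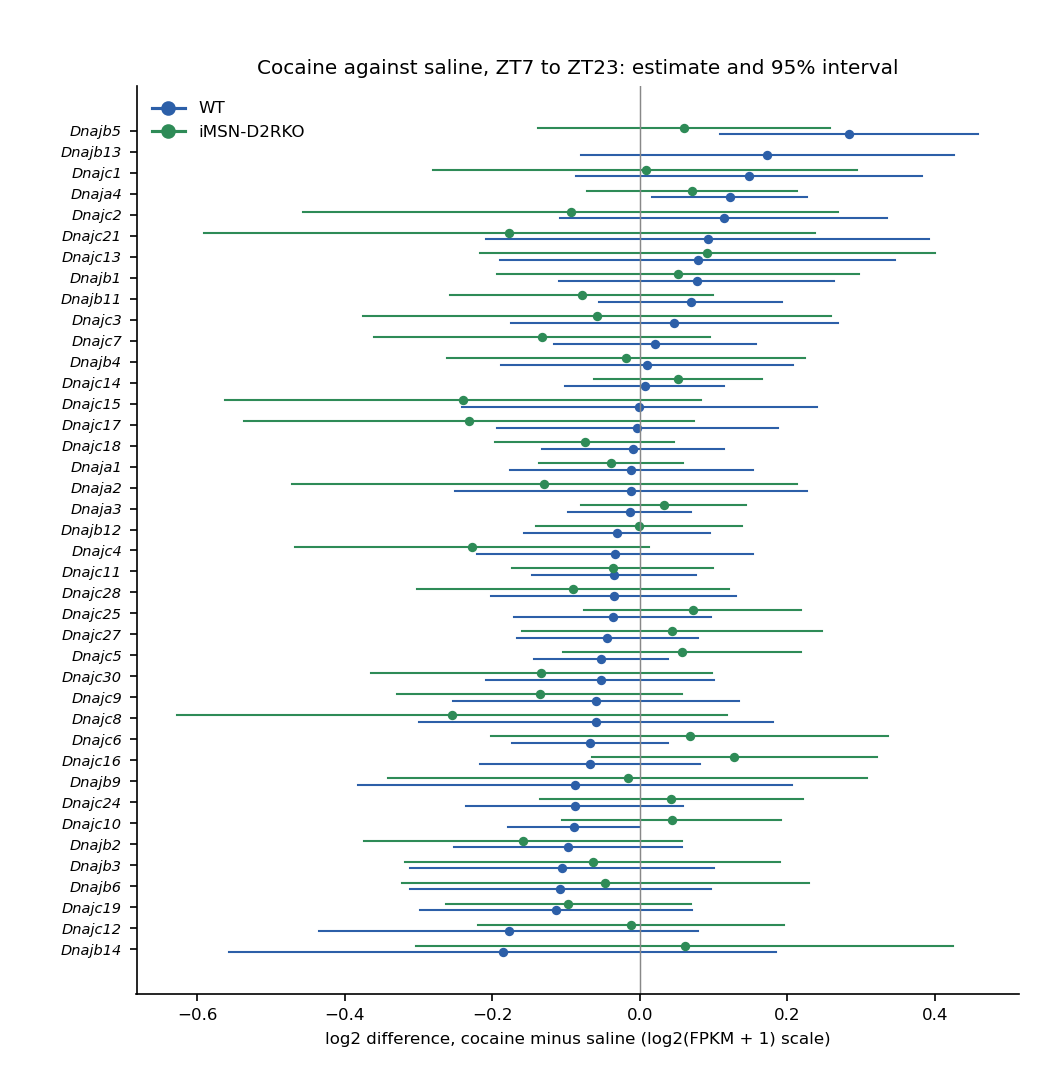
Difference of cocaine minus saline over ZT7 to ZT23 for each DNAJ gene tested, on the log2(FPKM + 1) scale, with its 95% interval from limma, in WT (40 genes) and iMSN-D2RKO mice (39 genes). In WT only the intervals of Dnajb5 and Dnaja4 lie apart from 0, and none passed after adjustment over all genes.

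In iMSN-D2RKO mice no DNAJ gene differed between cocaine and saline (0% of 14238 genes called, with no member and 425 genes at an unadjusted p under 0.05), and 37 of 39 intervals lay within 1.5-fold. The widest reached -0.628, for Dnajc8. The effect of cocaine did not differ between the genotypes for any member (0% of 14622 genes, with no member and 245 genes at an unadjusted p under 0.05). Here 35 of 40 intervals lay within 1.5-fold, and that of Dnajc21 reached -0.781, so larger differences between the genotypes cannot be told from none for 5 genes. Tested at any of the 5 time points together, again no member was called in WT (0.0205% of 14643 genes called, with no member and 435 genes at an unadjusted p under 0.05), in iMSN-D2RKO mice (0% of 14643, with 2 members and 916 genes at an unadjusted p under 0.05) or between the genotypes (0% of 14643, with 1 member and 519 genes at an unadjusted p under 0.05). Without the 13 set-apart libraries Dnajc21 was called in WT (adjusted p = 0.00335 by limma), as 1 of 227 of 14438 genes called there against 3 with all libraries, in a fit where ZT19 keeps 1 library per treatment, at 32.7 FPKM after cocaine and 9.16 FPKM after saline.

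At single time points the smallest p of a member was that of Dnajc10 at ZT7 in iMSN-D2RKO mice. Its libraries measured 14.7, 21.8 and 22.5 FPKM after saline and 27.1, 28.3 and 24.9 FPKM after cocaine. All cocaine libraries were above all saline libraries, and the 14.7 FPKM came from the library of the largest total FPKM. The 28.3 FPKM is a set-apart library, and such libraries were above the others for Dnajc10 in 10 of 10 groups. The difference was 0.449 ± 0.112 on the log2(FPKM + 1) scale (adjusted p = 0.0934 by limma, unadjusted p = 2.17e-04). In WT the libraries of that time point measured 23.4, 22.1 and 23.1 FPKM after saline and 23.6, 23.5 and 23.5 FPKM after cocaine. The difference of effects between genotypes at ZT7 was 0.409 ± 0.158 (adjusted p = 0.658 by limma). Dnajb5 at ZT19 in iMSN-D2RKO mice measured 44.3, 44.9 and 37.4 FPKM after saline and 59.4, 63.9 and 55.1 FPKM after cocaine, which did not overlap (0.487 ± 0.197, adjusted p = 0.304 by limma). Replicates 1 and 3 of saline there are set apart and no cocaine library is.

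Between the genotypes after saline no DNAJ gene was called, beside 0.189% of 14287 genes. At an unadjusted p under 0.05, 6 of 39 members and 1428 genes in all were found, and all 6 were higher in iMSN-D2RKO mice. These were Dnajc21, Dnajc7, Dnajc17, Dnajc8, Dnajc2 and Dnajc9. Replicate 1 of iMSN-D2RKO saline at ZT7 held the highest value of the 66 libraries for Dnajc7 (318 FPKM), Dnajc8 (208 FPKM), Dnajc2 (72.8 FPKM), Dnajc9 (49.9 FPKM) and Dnajc17 (38.3 FPKM). Without that library 7 members and 1185 of 14201 genes were at an unadjusted p under 0.05, and again no member was called by limma. Dnajc21 differed by 0.384 ± 0.142 on the log2(FPKM + 1) scale (adjusted p = 0.402 by limma). It passed the threshold without the 13 set-apart libraries (0.346, adjusted p = 0.0316), with the library score removed (0.353, adjusted p = 0.0182) and without the 15 libraries (0.304, adjusted p = 0.0165). In these settings 47, 136 and 106 genes were called, against 27 with all libraries. Over all alternatives the adjusted p ran from 0.0165 to 0.888. In the saline series its WT libraries measured 6.26, 5.92 and 9.55 FPKM at ZT7, and the iMSN-D2RKO libraries measured 14.4, 9.18 and 9.51 FPKM, where the 14.4 FPKM is the library of the largest total FPKM. At ZT15 they measured 6.98, 6.08 and 6.29 FPKM in WT and 10.3, 20.7 and 9.93 FPKM in iMSN-D2RKO mice, where the 20.7 FPKM is a set-apart library. They measured 5.78, 4.42 and 5.58 FPKM in WT and 7.54, 5.8 and 5.47 FPKM in iMSN-D2RKO mice at ZT11, and 19.3, 8.12 and 8.95 FPKM and 9.69, 10.5 and 29.9 FPKM at ZT23, where 19.3 and 29.9 FPKM are set-apart libraries. The test also took in ZT3, with 5.86, 5.79 and 5.32 FPKM in WT and 5.68, 7.07 and 6.90 FPKM in iMSN-D2RKO mice. With ZT19 as given above, the genotypes overlapped at ZT3 and at 4 of the 5 later time points and were apart at ZT15. After cocaine no member was called between the genotypes either (0.0487% of 14382 genes), with Dnajc24, needed to make diphthamide, at 0.177 ± 0.0805 and Dnajc4 at -0.182 ± 0.0831 (adjusted p = 1.0 by limma for both).

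The set-apart libraries were compared with the other libraries of the same 10 groups, as a description with no test. Of the 40 DNAJ genes, 12 were over 1.5-fold higher in them, beside 15.2% of 14643 genes, and 3 were over 1.5-fold lower, beside 11.6%. The largest was Dnajc21 (2.11-fold on the FPKM + 1 scale), followed by Dnaja2 (1.86-fold), which averaged 147 FPKM in the 13 and 66.2 FPKM in the other 53 libraries. Dnajc3 averaged 26.2 and 12.6 FPKM, Dnajc2 44.3 and 20.4 FPKM, and Dnajb4 59.4 and 32.5 FPKM. Lower were Dnajb6, a suppressor of polyglutamine aggregation (5.44 against 9.34 FPKM), Dnajb1 (12.4 against 18.7 FPKM) and Dnajc12, which binds the aromatic amino acid hydroxylases. The summed FPKM of 4 astrocyte markers was 278 to 352 in the 13 libraries and 150 to 321 in the others, and that of 4 oligodendrocyte markers 1644 to 3356 and 1777 to 5021. Their part in these differences was not tested.

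**Figure D5:**
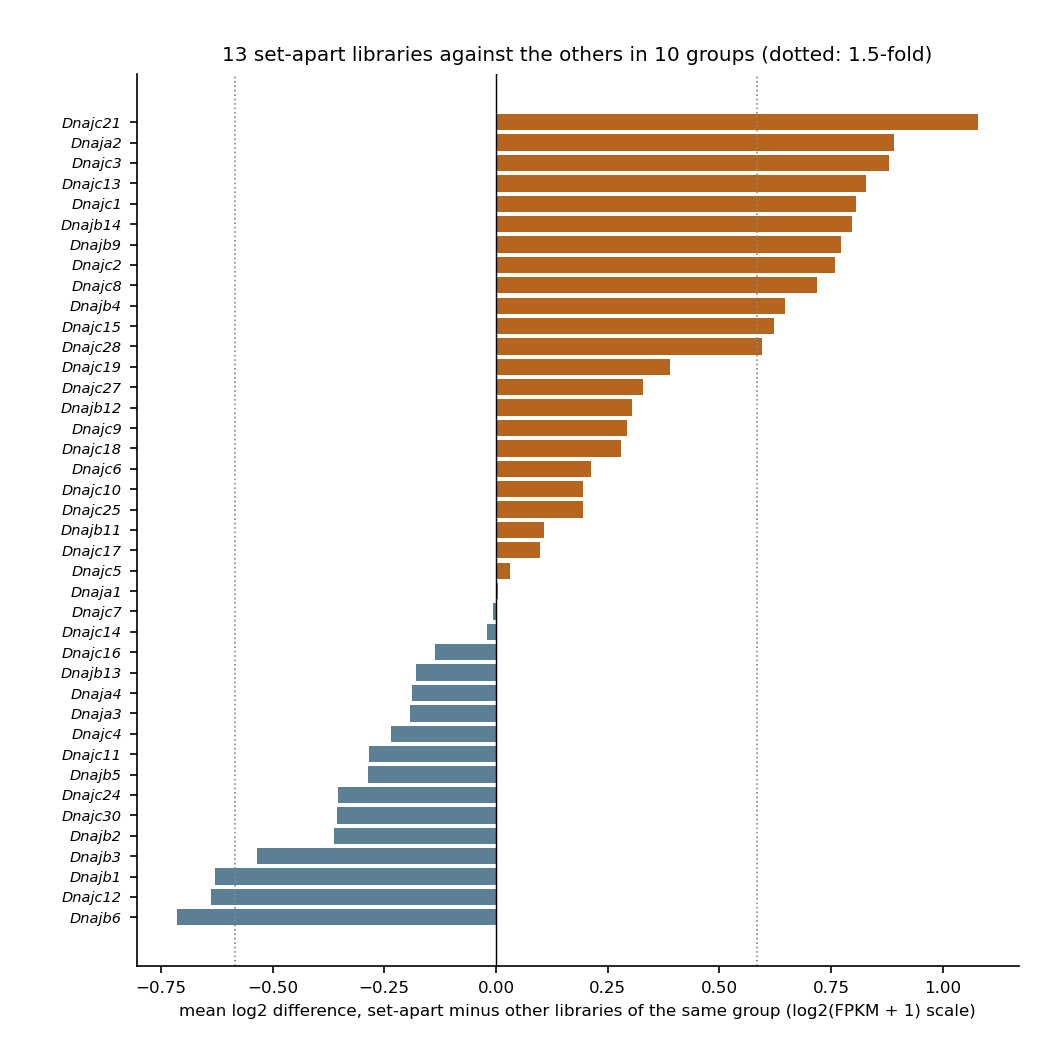
Mean difference of the 13 set-apart libraries from the other libraries of the same 10 groups for the 40 DNAJ genes tested, on the log2(FPKM + 1) scale, with dotted lines at a 1.5-fold difference. The values run from -0.715 for Dnajb6 to 1.08 for Dnajc21, and 12 pass the upper and 3 the lower line.

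Partners of the family were tested for harvest time in the same fit, in which 49.9% of all genes were called with all libraries and 30.5% without the 15. Of 15 HSP70 and HSP110 genes, 9 were called by limma with all libraries and 11 without the 15, of 9 nucleotide exchange factors, which reopen HSP70, 6 and 6, and of 11 heat-shock factors and other targets of the heat-shock factor HSF1, all 11 in both settings. Hsph1 (HSP110) averaged 88.6 ± 8.09 FPKM at ZT11 and 157 ± 24.4 FPKM at ZT19 (adjusted p = 1.71e-07), Hspa4 49.8 ± 3.91 and 74.2 ± 6.02 FPKM (adjusted p = 2.40e-07), and Chordc1, a co-chaperone of HSP90, 18.5 ± 1.65 and 41.6 ± 10.9 FPKM (adjusted p = 8.69e-07, limma). In the means over all groups these 3 were lowest at ZT11 and highest at ZT19. The constitutive Hspa8 (HSC70) ranged from 44.1 to 437 FPKM and was not called (adjusted p = 0.200 by limma). The inducible Hspa1a and Hspa1b were called (adjusted p = 5.55e-04 and 8.11e-05 by limma) at means of 1.65 and 1.3 FPKM, and reads of these near-identical genes may have been split between them. The JTK_CYCLE test called 6 of the 11 heat-shock factors and targets in WT after saline, 7 in WT after cocaine, 1 (Hsf2) in iMSN-D2RKO mice after saline and none after cocaine. Of all genes tested, 9.81%, 7.61%, 2.58% and 1.10% were called in the same series. In the direct tests of a difference in rhythm no gene was called, these partners included. Of 4 proteins with a J domain and no Dnaj symbol, Sec63 was called by harvest time (adjusted p = 0.00359 by limma) and none without the 15 libraries.

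A strict heat shock element (GAA, TTC and GAA, each with 2 bases between them) was in 0.603% of the promoter windows, and Dnajb6 was the only DNAJ gene with it, beside the partners Hsph1, Hspd1, Hspe1 and Chordc1. The E-box CACGTG, which reads the same on both strands, was in 7.15% of windows, and in those of Dnajb9, Dnajc1, Dnajc8 and Dnajc16 and of the partners Hsph1, Hsf2 and Hspd1. The cyclic AMP response element TGACGTCA was in 1.79% of windows and in that of Dnajc27.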

How the data were processed

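The authors prepared stranded poly(A) libraries, aligned single-end reads of 100 bases to mm10 with TopHat and Bowtie and deposited FPKM per gene from Cufflinks and Cuffnorm for 24138 genes. The annotation release, and whether overlapping genes were separated by strand, are not given in the sources used here. The table has 72 columns, of which 6 repeat a ZT3 library with identical values, which leaves 66 libraries. Replicates are 3 libraries per group. The limma p-values at single time points, or at any of them together, measure the spread between these. Those of the harvest time, level and rhythm difference tests also take in differences between groups that the fitted terms leave out. JTK_CYCLE p-values rest on the order of the values. Positions are those of GENCODE on GRCm38, which is mm10, and promoters those of RefSeq.

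A gene was tested where 1 or more libraries of the comparison reached 1 FPKM. limma 3.58.1 (R 4.3.3) was run on log2(FPKM + 1) with a variance trend, with Benjamini-Hochberg adjustment over all genes, at an adjusted p under 0.05. A fold change on this scale is smaller than that of FPKM for low genes. JTK_CYCLE was written anew in Python 3.11.15 and applied to FPKM for periods of 20 or 24 h, corrected over 11 pairs of period and phase and called at p under 0.01, after Dixon's test at 95% left out at most 1 of 3 replicates per time point. Its handling of ties was settled against the WT columns of a source table of the study. Both tests were tested on simulated data. Any member could be named. Values per group were open to members called in a test, the 3 with the smallest p of each test and the 5 of the highest mean, and are printed for those the results turn on. Set-apart libraries were found from a principal component of the deviations from group means over 9549 genes with a mean FPKM over 5. Of the other lists, members called by harvest time or in several rhythm tests and those with the smallest p could be named. The members, lists and tests were chosen with earlier results of these data known. The settings without single time points other than ZT19, without 15 libraries and without replicate 1 of iMSN-D2RKO saline at ZT7 or replicate 3 of WT cocaine at ZT15 were added after seeing the data.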

Additional observations from a re-analysis of the deposited data

How the results depend on the processing

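Dnajc21, called between the genotypes after saline in 3 settings, was higher in iMSN-D2RKO mice in each of them and with all libraries. The harvest time of the highest fitted mean moved for some members. Without the 15 libraries it went from ZT3 to ZT19 for Dnajb1, from ZT7 to ZT19 for Dnajb6 and from ZT19 to ZT3 for Dnaja1. Against 22 members and 7304 genes with all libraries, the harvest time test called 12 to 21 members when replicate 1, 2 or 3 of every group was left out (1663 to 7118 genes), 13 without ZT11 (3737 genes) and 23 without replicate 3 of WT cocaine at ZT15 (7256 genes). In WT after saline, 9 members and 1367 genes were rhythmic with all libraries, 4 without ZT19 (696 genes), 4 without ZT11 (1198), 5 without ZT15 (1077), 4 to 5 without 1 replicate number (204 to 791) and 4 at an adjusted p under 0.05 over all genes. In WT after cocaine, against 6 members and 1086 genes, the counts were 2 without ZT19 (482 genes), 3 without ZT23 (586), 2 without the set-apart libraries (337), 2 without the 15 libraries (340), 0 to 4 without 1 replicate number (212 to 856), 6 without replicate 3 at ZT15 only (1317), 11 at p under 0.05 (2779) and 0 after adjustment over all genes. In iMSN-D2RKO mice after saline, against 0 members and 365 genes, they were 1 without ZT3 (288 genes), 4 without ZT7 (642), 1 without ZT23 (637), 1 after rescaling by median ratios (375), 2 with the library score removed (275), 0 to 1 without 1 replicate number (80 to 940) and 3 at p under 0.05 (1602). After cocaine, against 2 members and 153 genes, they were 0 without ZT19 (78 genes), 4 with the library score removed (383), 0 to 2 without 1 replicate number (56 to 144), 0 after adjustment over all genes and 0 with a limma cosine test. Between the genotypes after saline, 1 member (Dnajc21) was called in each of 3 settings, against 0: the set-apart libraries left out (1, with 47 genes), the 15 libraries left out (1, with 106) and the library score removed (1, with 136). Any effect of cocaine in WT was called for 1 member (Dnajc21) and 227 genes without the set-apart libraries. This test, and that of its difference between the genotypes, could not be fitted without the 15 libraries, which leave no WT cocaine library at ZT19. The cause of these changes was not tested.

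Replicate numbers did not pair the libraries: deviations from the group means correlated at a median of -0.00269 between libraries of the same number and 0.00322 between those of different numbers, and 25 of 66 libraries were closest to one of their own number. With a replicate block the limma cosine test called 17, 8, 0 and 0 members (3241, 1899, 1 and 0 genes) in the 4 series, against 12, 8, 0 and 0 (1965, 2084, 1 and 0) without it, and the harvest time test called 22 as before.

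The main limits are the 3 libraries per group, the unknown number of reads behind each FPKM and the concentration of set-apart libraries at ZT19 and ZT23. The tests of single members under the alternatives were tallied in part, not for every member and test. In that part 533 stayed on their side of the threshold, 135 lost the call and 9 gained it. Several members named above gained a call outside that tally.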
